A study of Mus musculus with 2 samples.

Results

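The genes described here are 10 genes of the neuromuscular synapse: the acetylcholine receptor subunits *Chrna1*, *Chrnb1*, *Chrnd*, *Chrne* and *Chrng*, the receptor kinase *Musk* and its co-receptor *Lrp4*, the acetylcholinesterase gene *Ache* and its collagen anchor *Colq*, and the adhesion molecule *Ncam1*. They were chosen by symbol, and all 10 were found among the 32285 gene rows of the matrices. Each gene was read in junctional myonuclei, defined as myonuclei with at least 1 unique molecular identifier (UMI, a counted RNA molecule) of at least 2 of the 4 genes *Ache*, *Chrne*, *Musk* and *Colq*, and in all other myonuclei. This rule gave 46 junctional nuclei of the 7618 nuclei kept, 23 in each library. The data are single-nucleus RNA sequencing of the tibialis anterior (TA) muscle of male C57BL/6 mice at 6 weeks of age. The library labelled M-*Bcl6* KO (here the KO-labelled library) came from mice with floxed *Bcl6* alleles (*Bcl6* fl/fl) and a Cre recombinase driven by the muscle promoter of *Myf6*. The library labelled M-*Bcl6* WT (the WT-labelled library) came from *Bcl6* wt/wt littermates that carry the same *Myf6*-Cre, so that Cre was present in both. The right and left TA of 2 mice were pooled in each library, nuclei were sorted on the DNA dye 7-AAD, and there was 1 library per genotype.

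At the neuromuscular junction, a motor nerve ending releases acetylcholine onto a small patch of the muscle fibre that is packed with acetylcholine receptors. The few myonuclei beneath that patch transcribe the synaptic genes, whereas nuclei elsewhere along an innervated fibre keep most of them silent. Agrin from the nerve binds LRP4, which activates MuSK, and this signalling clusters the receptors. The adult receptor is built of alpha, beta, delta and epsilon subunits, while the gamma subunit takes the place of epsilon in the fetal receptor. After loss of the nerve, several of these genes, with *Ncam1* and *Musk* among the best known, are switched on along the whole fibre. No measurement of innervation is part of these data.

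The genes lie apart in the genome, except for *Chrnd* and *Chrng*, which are neighbours on the forward strand of chromosome 1 (87190607 to 87200070 and 87204657 to 87212694 in GRCm38, GENCODE M21). *Chrne* spans 70614883 to 70619216 on the reverse strand of chromosome 11 and overlaps 4930544D05Rik on the other strand. *Ncam1*, from 49502136 to 49798925 on the reverse strand of chromosome 9, holds the antisense gene Gm11149, and *Ache*, from 137287519 to 137294466 on the forward strand of chromosome 5, overlaps the antisense Gm42456. Without strand these pairs cannot be told apart in the counts, and the strand setting is not given in the sources used here. On chromosome 2 lie *Chrna1* (73563215 to 73580338, reverse) and *Lrp4* (91457511 to 91513779, forward), on chromosome 11 also *Chrnb1* (69784036 to 69795943, reverse), on chromosome 4 *Musk* (58285960 to 58374303, forward) and on chromosome 14 *Colq* (31523082 to 31591343, reverse), which overlaps Gm24057 and Gm49387 on its own strand, neither of them counted. RefSeq promoters (GRCm38.p6) were matched for 6 of the 10 genes, namely *Chrna1*, *Chrnb1*, *Chrne*, *Chrng*, *Musk* and *Ache*. The 250 bases before the start were searched on both strands for the N-box (CCGGAA, the letters known from synaptic promoters that ETS factors bind), the E-box (CANNTG, read by myogenic factors such as MyoD) and the letters TTCNNNGAA, which STAT and BCL6 proteins can bind. The start is that of the RefSeq promoter and can differ from the GENCODE spans above. For *Chrng* (87205561 to 87205810) and *Ache* (137288004 to 137288253) these bases lie inside the span, and for *Chrne*, *Chrnb1* and *Musk* they overlap its edge. Of the 6 promoters only that of *Chrne* held an N-box, 76 bases before the start, against 12% of 32851 promoters of that length. All 6 held an E-box, as did 66.2% of all promoters, and none held TTCNNNGAA, which 7.02% of all promoters hold. The 3 receptor promoters below are shown because their genes span the range of enrichment in junctional nuclei, from *Chrne*, also when it is left out of the choice of nuclei, through *Chrna1* to *Chrnb1*. They run 5′ to 3′ in the direction of the gene, and capitals mark N-boxes and E-boxes.
Chrne (chr11:70619195-70619444, reverse strand): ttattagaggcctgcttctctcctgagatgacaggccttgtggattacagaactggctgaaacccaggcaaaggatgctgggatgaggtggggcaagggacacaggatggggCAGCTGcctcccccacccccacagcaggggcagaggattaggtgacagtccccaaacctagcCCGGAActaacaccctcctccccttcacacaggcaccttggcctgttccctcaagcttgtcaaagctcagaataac
Chrna1 (chr2:73580339-73580588, reverse strand): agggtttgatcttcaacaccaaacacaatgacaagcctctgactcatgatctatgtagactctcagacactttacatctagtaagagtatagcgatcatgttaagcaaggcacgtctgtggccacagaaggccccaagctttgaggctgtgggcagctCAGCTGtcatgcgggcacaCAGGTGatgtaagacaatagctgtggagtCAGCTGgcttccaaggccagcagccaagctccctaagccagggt
Chrnb1 (chr11:69795938-69796187, reverse strand): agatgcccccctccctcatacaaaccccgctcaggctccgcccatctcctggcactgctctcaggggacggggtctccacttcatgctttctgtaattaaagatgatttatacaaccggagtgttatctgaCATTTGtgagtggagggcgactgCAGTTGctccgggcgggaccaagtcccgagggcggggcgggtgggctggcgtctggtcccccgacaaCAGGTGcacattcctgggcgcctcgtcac
The *Chrna1* promoter has 3 E-boxes, at 92, 73 and 44 bases before the start, of which 2 read CAGCTG, a form that 13% of all promoters hold. *Chrnb1* has 3 as well, none of them CAGCTG. A match is a run of letters and was not tested for binding.

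After filtering, 3674 nuclei were kept from the WT-labelled library and 3944 from the KO-labelled library, and 6 barcode sequences occurred in both libraries. Myonuclei, taken as the clusters rich in 10 fibre genes such as *Ttn* and *Ckm*, made up 2414 nuclei (65.7%) with 8863870 UMIs and 3086 nuclei (78.2%) with 9650559 UMIs. The members themselves were left out of the clustering. Levels are UMIs per 1000000 UMIs of the same nuclei (CPM), and a change is the log2 ratio of the KO-labelled library over the WT-labelled library. All intervals are exact 95% intervals and cover counting error only, because 1 library per genotype allows neither a test nor a replicate spread. Fewer expressing nuclei and less RNA per nucleus cannot be told apart in a summed level. *Bcl6*, the targeted gene, had 1485 UMIs (168 CPM) in myonuclei of the WT-labelled library and 4840 UMIs (502 CPM) in the KO-labelled library, a log2 ratio of 1.58 (1.50 to 1.67). The targeted gene thus goes against the label, and every direction below refers to a library by its label. The file gives 1 count per gene and does not separate the floxed exons 7 to 9 from the rest of *Bcl6*, so it does not check the deletion, and a swap of the labels and a stable truncated transcript cannot be told apart in it. *Socs2*, a gene that BCL6 is known to repress, had 633 UMIs (71.4 CPM) and 3689 UMIs (382 CPM), a log2 ratio of 2.42 (2.30 to 2.54). It was thus higher in the KO-labelled library, the direction that this label gives for a repressed gene. Across myonuclei, 6985 genes reached 200 UMIs, and their median log2 ratio was −0.15.

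Junctional nuclei were 23 of 2414 myonuclei in the WT-labelled library (0.953%, 0.605 to 1.43) and 23 of 3086 in the KO-labelled library (0.745%, 0.473 to 1.12), and these intervals overlap. With every nucleus thinned to 1000 UMIs, which left out 27 and 73 shallower myonuclei, the shares were 0.545% (13 of 2387) and 0.431% (13 of 3013). All 4 genes were found in 5 nuclei of the WT-labelled library and 2 of the KO-labelled library, 3 genes in 6 and 5 nuclei, and 2 genes in 12 and 16 nuclei. *Musk* was among the genes found in 22 and 21 of them, *Colq* in 17 and 15, *Chrne* in 14 and 10, and *Ache* in 9 each. The median depth of junctional nuclei (3065 and 2779 UMIs) was close to that of other myonuclei (3133 and 2713 UMIs), and their median doublet scores were 0.0722 and 0.0493 against 0.0592 and 0.0452. Outside myonuclei, the same rule was met by 0 of 1260 nuclei in the WT-labelled library, whose exact interval reaches 0.292%, and by 1 of 858 in the KO-labelled library. Just outside the rule, 172 (7.13%) and 291 (9.43%) myonuclei held exactly 1 of the 4 genes, mostly *Musk* (153 and 237 nuclei). Their *Ncam1* level was 31.3 and 67.3 CPM, against 551 and 196 CPM in the nuclei with exactly 2.

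Junctional nuclei were described further by 12 other genes that mark the junction, such as *Ano4*, *Etv5*, *Phldb2* and *Utrn*. This list was chosen with earlier results of these data known, so it is not an independent check of the label. In the WT-labelled library, the 11 nuclei with 3 or 4 of the rule's genes each held at least 8 of the 12 markers. The 12 nuclei with exactly 2 held a median of 2.5. In the KO-labelled library, the medians were 8.5 markers in the 2 nuclei with all 4 genes, 4 markers in the 5 nuclei with 3 genes, and 2 markers in the 16 nuclei with 2 genes. Counting nuclei with at least 4 of the 12 markers, a number chosen after the values were seen, 15 of 23 junctional nuclei in the WT-labelled library (65.2%) and 9 of 23 in the KO-labelled library (39.1%) carried the wider junction profile, against 6 of 2391 and 5 of 3063 other myonuclei. The rule therefore took in nuclei that had few other junction markers, and more of them in the KO-labelled library. This mix moves with each comparison of the libraries within junctional nuclei, so those are given below for the 15 and 9 marker-rich nuclei too, and its part in them was not tested otherwise. Among markers of other cells in junctional nuclei, those of fibro-adipogenic progenitors summed to 3284 and 1390 CPM, against 362 and 330 CPM in other myonuclei. *Lama2*, a laminin gene that fibres transcribe too, made up 3205 and 1366 CPM of the junctional sums. Of the 6 markers, 4 were detected in junctional nuclei of the WT-labelled library and 2 in those of the KO-labelled library. *Pdgfra* and *Col3a1* were at 0 in both. The 7 Schwann cell markers reported here, of 8 in the list, summed to 0 UMIs in each library (at most 41.8 and 44.6 CPM), and the 6 muscle stem cell markers to 1 and 0 UMIs. The 6 macrophage markers summed to 79.3 CPM (31.9 to 163) and 96.7 CPM (41.8 to 191), all from *Mrc1*, against 26.1 CPM in other myonuclei of each library. The 4 myotendinous markers (of nuclei where fibre meets tendon) summed to 510 CPM (372 to 682) and 181 CPM (101 to 299), against 187 and 216 CPM. Those of pericytes or smooth muscle summed to 136 and 206 CPM, against 295 and 245 CPM. The part of these cells was not tested.

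**Figure D1:**
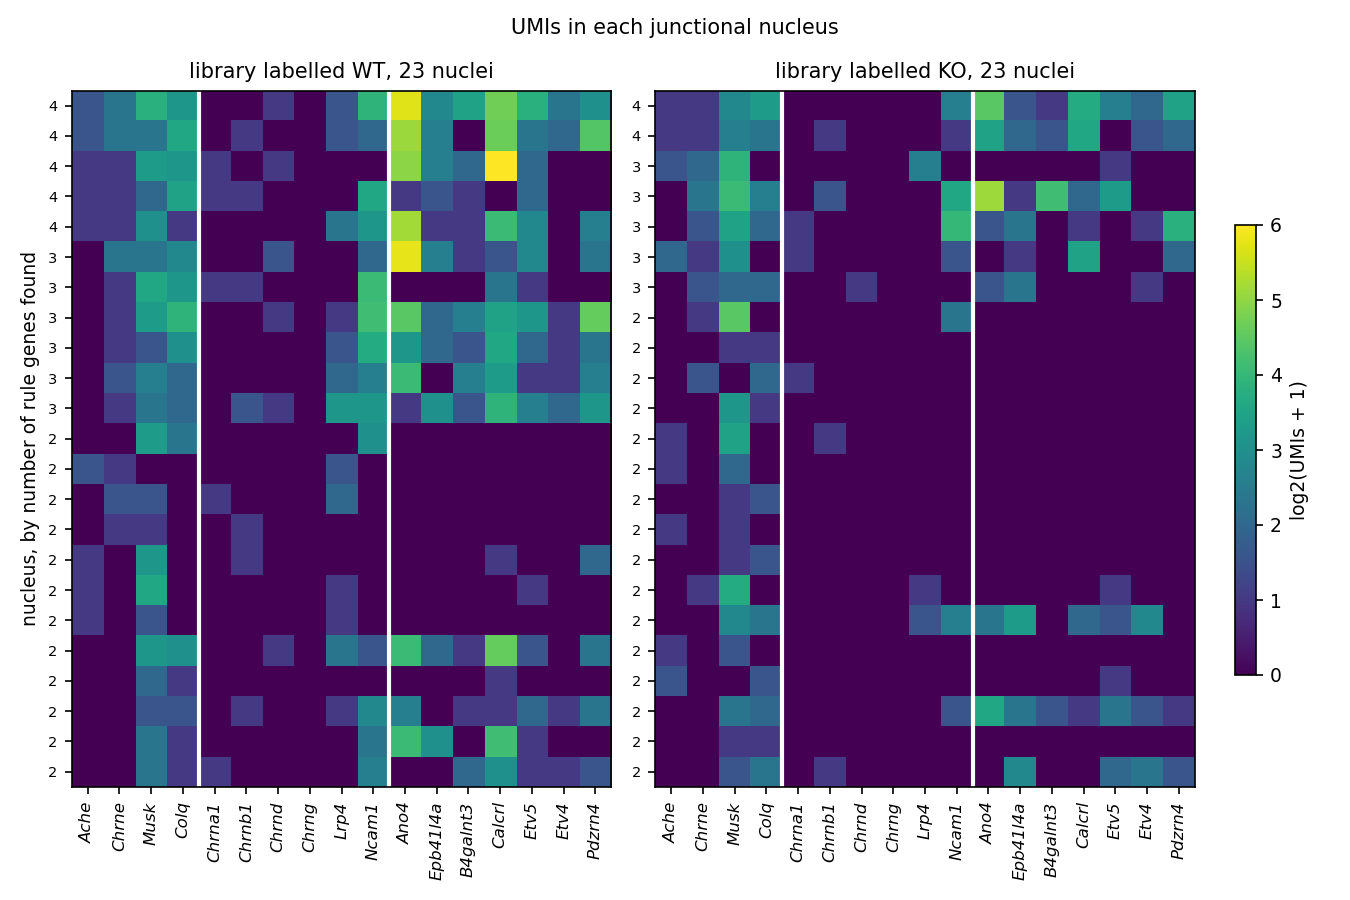
UMIs of each gene (columns) in each of the 46 junctional nuclei (rows, 23 per library, ordered by the number of rule genes found and then by depth), on a colour scale of log2(UMIs + 1) from 0 to 6. White lines separate the 4 rule genes, the other 6 members and 7 further genes found in junctional nuclei. Nuclei with 3 or 4 rule genes mostly hold the further genes as well, and many nuclei with 2 do not.

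Among the receptor subunits in myonuclei, *Chrne*, *Chrnd* and *Chrna1* were strongly enriched in junctional nuclei, *Chrnb1* was enriched little, and *Chrng* was not found there. *Chrne*, the adult subunit and one of the genes that chose the nuclei, had 25 UMIs (283 CPM) in the 23 junctional nuclei of the WT-labelled library and 3 UMIs in its 2391 other myonuclei. The counts in the KO-labelled library were 18 UMIs (218 CPM) and 4 UMIs. When the nuclei were chosen by at least 2 of the other 3 genes only, *Chrne* had 7 of its 28 and 8 of its 22 UMIs outside them, and was 372-fold and 262-fold higher in them than in the rest (log2 8.54, 7.25 to 10.0, and 8.03, 6.68 to 9.49). *Chrnd*, the delta subunit, had 7 UMIs in 6 junctional nuclei of the WT-labelled library, 1 UMI in the KO-labelled library, and 0 UMIs in the other 2391 and 3063 myonuclei. Its level in junctional nuclei of the WT-labelled library was at least 232-fold higher, taken against 3 counts in the other myonuclei. *Chrna1*, the alpha subunit that carries most of the acetylcholine site, had 5 UMIs in each class of nuclei in the WT-labelled library, which is a log2 ratio of 6.63 (4.52 to 8.75), and 3 against 6 UMIs in the KO-labelled library, 5.85 (3.23 to 8.08). These 3 genes rest on a handful of molecules in each library. *Chrnb1*, the beta subunit, was found in 212 of 2391 other myonuclei (8.87%) and 274 of 3063 (8.95%), at 26.7 and 33.5 CPM. Endothelial-like nuclei, which should lack a receptor subunit, held 35.7 and 29.9 CPM (14 and 8 UMIs) at median depths of 1400 and 1754 UMIs. Thinned to 1000 UMIs per nucleus, the shares were 2.66% and 3.34% in other myonuclei against 3.27% (1.07 to 7.46) and 2.68% (0.556 to 7.63) in endothelial-like nuclei. *Chrnb1* outside the junction was thus not detectably above endothelial-like nuclei. Nuclei like fibro-adipogenic progenitors held less, 16.6 CPM (9.86 to 26.3) and 9.95 CPM (4.0 to 20.5), with thinned shares of 1.26% and 0.372%, so the background for *Chrnb1* depends on the class it is taken from. Its junctional level was 3.40-fold higher in the WT-labelled library (log2 1.76, 0.54 to 2.77). In the KO-labelled library the log2 ratio was 0.85 with an interval that includes 0 (−0.78 to 2.09), while thinned to 1000 UMIs, on 3 UMIs in junctional nuclei, it was 2.67 (0.37 to 4.25). *Chrng*, the fetal gamma subunit, had 3 UMIs in each library, none of them in a junctional nucleus, where the exact intervals reach 41.8 and 44.6 CPM.

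*Musk*, the kinase at the core of receptor clustering, was found in 22 of 23 and 21 of 23 junctional nuclei, with 125 UMIs (1416 CPM) in the WT-labelled library and 134 UMIs (1620 CPM) in the KO-labelled library. It was also held by 153 other myonuclei in the WT-labelled library and 237 in the KO-labelled library. Chosen without it, junctional nuclei still had a log2 ratio over other myonuclei of 5.23 (4.84 to 5.60) and 4.70 (4.30 to 5.08). Between the libraries, *Musk* was higher outside the junction in the KO-labelled library. Other myonuclei held 30.7 CPM in the WT-labelled library and 63.5 CPM in the KO-labelled library, a log2 ratio of 1.05 (0.84 to 1.26), or 0.95 (0.76 to 1.15) outside nuclei chosen by the other 3 rule genes. The junctional log2 ratio was 0.19 (−0.17 to 0.56), an interval that includes 0. It was 0.42 (−0.10 to 0.94) in nuclei chosen by the other 3 rule genes, 0.54 (0.02 to 1.05) in those with at least 3 rule genes and 0.57 (0.09 to 1.05) in the marker-rich nuclei. The difference between the places was not tested. Outside the junction and the cluster of myotendinous nuclei, *Musk* was found in 6.33% and 7.69% of nuclei, with 1.76 and 2.59 UMIs in each nucleus that held it. Of these nuclei, 6 in the WT-labelled library and 31 in the KO-labelled library held 5 or more UMIs. Thinned to 1000 UMIs, *Musk* was found in 2.20% and 3.71% of other myonuclei, against 0.654% (1 of 153) and 0 of 112 endothelial-like nuclei. Nuclei like fibro-adipogenic progenitors had higher thinned shares than other myonuclei, 4.77% (2.90 to 7.35) and 9.29% (6.10 to 13.4). Their level was higher in the KO-labelled library too, at 75.8 CPM (60.3 to 94.1) and 134 CPM (108 to 163). So was that of tenocyte-like nuclei, on 1 and 14 UMIs, while the intervals of muscle stem cell-like nuclei overlapped (252 to 389 and 310 to 492 CPM). The higher *Musk* was thus not particular to myonuclei. Markers of fibro-adipogenic progenitors, which hold *Musk* too, summed to 284 and 190 CPM in nuclei with *Musk* and to 161 and 131 CPM in nuclei without it, and their part in the result was not tested.

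*Lrp4*, which encodes the agrin receptor, was found in 13 of 23 junctional nuclei in the WT-labelled library and in 3 of 23 in the KO-labelled library. Its 34 UMIs (385 CPM) against 8 UMIs (96.7 CPM) give a log2 ratio of −1.99 (−3.32 to −0.86). In the marker-rich nuclei it was −2.12 (−4.48 to −0.42), while in nuclei with at least 3 rule genes it was −1.38 (−3.14 to 0.06) on 22 and 5 UMIs, an interval that includes 0. A single nucleus held 5 of the 8 UMIs in the KO-labelled library, and without the richest nucleus of each library the log2 ratio was −2.93 (−5.30 to −1.22). *Lrp4* was also read widely outside the junction, in 9.37% and 6.43% of other myonuclei, at 35.1 and 28.0 CPM against 7.65 and 11.2 CPM (3 UMIs each) in endothelial-like nuclei, with a log2 ratio of −0.33 (−0.57 to −0.08) whose interval includes the median of all genes. Nuclei like fibro-adipogenic progenitors held 26.8 CPM (17.9 to 38.5) and 41.2 CPM (27.6 to 59.2), so *Lrp4* pooled over all myonuclei outside the junction was not detectably above that class. Nuclei with *Myh2* as their main myosin gene, without the myotendinous cluster, were above it, at 79.1 CPM (61.3 to 100) and 73.3 CPM (60.8 to 87.6). Tenocyte-like nuclei held 54.3 and 86.3 CPM, and pericyte or smooth muscle-like nuclei 46.4 and 17.2 CPM. Junctional nuclei exceeded other myonuclei by 3.46 on the log2 scale (2.90 to 3.97) in the WT-labelled library and by 1.79 (0.56 to 2.79) in the KO-labelled library. With at least 3 rule genes these values were 3.76 (3.07 to 4.38) and 2.74 (1.11 to 3.99), and with 2 or more UMIs of each gene 3.56 and 2.73. With at least 1 rule gene the value of the KO-labelled library was 0.32 (−0.19 to 0.80), an interval that includes 0.

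*Ache*, whose enzyme ends each acetylcholine signal, and *Colq*, whose collagen tail anchors that enzyme in the synaptic cleft, were both far higher in junctional nuclei. *Colq* had 95 UMIs in 17 junctional nuclei of the WT-labelled library and 5 UMIs in 4 of the other 2391 myonuclei. In the KO-labelled library it had 47 UMIs in 15 junctional nuclei and 20 UMIs in 16 other myonuclei. With nuclei chosen by the other 3 genes, the log2 ratio was 8.85 (8.14 to 9.62) and 6.65 (5.87 to 7.41) for *Colq*, and 5.57 (4.07 to 6.90) and 4.62 (3.22 to 5.80) for *Ache*. Since *Colq* helps to choose the nuclei, its change between the libraries was taken from nuclei chosen by the other 3 genes, added after seeing the data. It was −1.29 (−2.01 to −0.61) in the 17 and 13 nuclei so chosen, on 79 and 24 UMIs. Among the rest, which then include nuclei with *Colq* and 1 other rule gene, it was 0.91 (0.12 to 1.73), on 21 and 43 UMIs. By the full rule, whose split uses *Colq* itself, the values were −0.92 (−1.46 to −0.40) and 1.88 (0.42 to 3.64), and −0.31 (−0.92 to 0.27) in the marker-rich nuclei. *Ache* had 12 and 13 UMIs in junctional nuclei (136 and 157 CPM), and 13 and 34 UMIs in other myonuclei (1.48 and 3.55 CPM), where the log2 ratio was 1.26 (0.30 to 2.31), or 1.03 (0.19 to 1.92) outside nuclei chosen without *Ache*. Endothelial-like nuclei held 0 UMIs of either gene, with exact intervals that reach 9.40 and 13.8 CPM, so levels this low were not detectably above background. Every one of the 34 *Ache* molecules outside the junction in the KO-labelled library lay in a nucleus of its own.

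*Ncam1*, which was not used to choose the nuclei, was 85.9-fold higher in junctional nuclei of the WT-labelled library and 10.4-fold higher in those of the KO-labelled library. Its 121 UMIs in 15 of 23 junctional nuclei (1370 CPM, 1137 to 1637) compare with 140 UMIs in 46 of 2391 other myonuclei (16.0 CPM), a log2 ratio of 6.42 (6.06 to 6.79). In the KO-labelled library, 45 UMIs were found in 8 of 23 junctional nuclei (544 CPM, 397 to 728) and 501 UMIs in 208 of 3063 other myonuclei (52.4 CPM), a log2 ratio of 3.38 (2.90 to 3.82). The contrast between the junction and the rest of the fibre was thus smaller in the KO-labelled library. Its size moved with the rule, and with at least 3 rule genes the log2 ratios were 6.86 and 4.59. Within junctional nuclei the log2 ratio of the libraries was −1.33 (−1.86 to −0.83), −0.76 (−1.36 to −0.18) in nuclei with at least 3 rule genes and −0.50 (−1.06 to 0.04) in the marker-rich nuclei. Outside the junction it was 1.71 (1.44 to 2.00). The 4 myotendinous markers moved with *Ncam1* in junctional nuclei, at 510 CPM (372 to 682) in the WT-labelled library and 181 CPM (101 to 299) in the KO-labelled library. Their part in the result was not tested.

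A part of the *Ncam1* outside the junction came from the cluster of 25 and 32 nuclei with *Col22a1*, *Slc24a2* and *Ankrd1* among its leading genes, called MTJ-like because these genes mark the myotendinous junction where fibre meets tendon. Of these nuclei, 2 in the WT-labelled library and 0 in the KO-labelled library were junctional by the rule. Without them the cluster held 861 CPM of *Ncam1* in the WT-labelled library, in 14 of 23 nuclei, and 1292 CPM in the KO-labelled library, in 21 of 32 nuclei, a log2 ratio of 0.59 (0.19 to 0.99). *Musk* had 5 UMIs there in each library. With junctional and MTJ-like nuclei both left out, *Ncam1* was found in 32 of 2368 myonuclei (1.35%, 0.926 to 1.90) in the WT-labelled library and in 187 of 3031 (6.17%, 5.34 to 7.09) in the KO-labelled library. The levels there were 6.57 CPM (57 UMIs) and 36.8 CPM (348 UMIs), a log2 ratio of 2.49 (2.08 to 2.92). Most of these nuclei held 1 UMI of *Ncam1*, 22 of 32 and 115 of 187, and the richest held 9 and 29 UMIs. The median depths were 3469 and 3480 UMIs where *Ncam1* was found, and 3130.5 and 2675.5 UMIs where it was not, so the latter nuclei were shallower in the KO-labelled library. Thinned to 1000 UMIs, *Ncam1* was found in 1.06% (0.685 to 1.56) and 3.65% (3.0 to 4.38) of all myonuclei outside the junction, against 0.654% (1 of 153) and 0 of 112 endothelial-like nuclei. The exact intervals of the endothelial-like shares reach 3.59% and 3.24%, and nuclei like fibro-adipogenic progenitors held *Ncam1* at 25 and 38.4 CPM, with thinned shares of 1.51% (0.555 to 3.25) and 2.60% (1.05 to 5.29). By level, *Ncam1* in all myonuclei outside the junction stood at 16.0 CPM (13.4 to 18.8) in the WT-labelled library, not detectably above either class. In the KO-labelled library it stood at 52.4 CPM (47.9 to 57.2), above the endothelial-like nuclei (0 UMIs, up to 13.8 CPM) but not detectably above the nuclei like fibro-adipogenic progenitors (25.3 to 55.8 CPM). Muscle stem cells express *Ncam1*, and their 6 markers summed to 0 UMIs in the 32 nuclei and to 9 UMIs (12.4 CPM, 5.67 to 23.6) in the 187, against 20.2 and 19.1 CPM in myonuclei without *Ncam1*. The 7 Schwann cell markers summed to 22.5 CPM (3 UMIs, 4.63 to 65.7) and 4.14 CPM (3 UMIs, 0.853 to 12.1), against 4.80 and 4.81 CPM in myonuclei without *Ncam1*. The 6 markers of fibro-adipogenic progenitors were higher with *Ncam1* (502 and 358 CPM) than without it (166 and 119 CPM), and so were the 4 myotendinous markers (352 and 210 against 119 and 160 CPM). *Lama2* was the most abundant of the former over all nuclei outside the junction (338 of 362 and 309 of 330 CPM), all 6 were detected there, and the part of these cells in the result was not tested. Of the 17 genes that respond to denervation, 13 had at least 20 UMIs in each library with junctional and MTJ-like nuclei left out. They were tallied by sign, without regard to whether nerve loss raises or lowers them. In nuclei with *Ncam1* over those without it, the WT-labelled library had 3 with an interval above 0 (*Hdac9*, *Runx1* and *Ankrd1*) and 3 below it (*Dach2*, *Trim63* and *Fbxo32*), against 3.98% and 2.66% of all genes with as many UMIs. The KO-labelled library had 4 above (*Hdac9*, *Dach2*, *Runx1* and *Ankrd1*) and 2 below (*Trim63* and *Fbxo32*), against 8.73% and 4.95%. *Dach2* thus differed in direction between the libraries, a difference that was not tested. It rested on few molecules, 0 UMIs with *Ncam1* against 279 without it in the WT-labelled library, and 12 against 29 in the KO-labelled library. The mix of fibre types differed as well, since *Myh4* led in 9.38% of nuclei with *Ncam1* and 29.4% without it (WT), and in 12.3% and 20.4% (KO). *Ankrd1* is also a leading gene of the MTJ-like cluster.

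**Figure D2:**
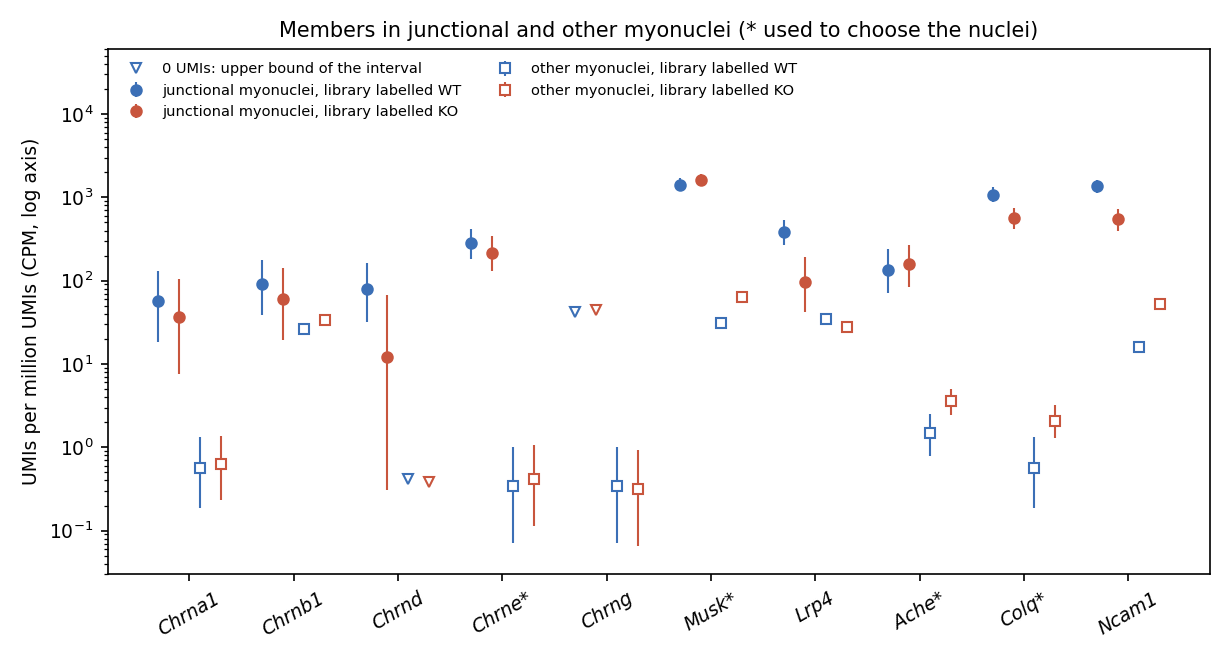
Level of each member in CPM (log axis) in junctional myonuclei (filled circles, 23 nuclei per library) and other myonuclei (open squares, 2391 and 3063 nuclei) of the libraries labelled WT (blue) and KO (red), with exact 95% Poisson intervals and open triangles at the upper bound where the count was 0. Of the members that did not choose the nuclei, all but *Chrng* lie higher in junctional nuclei in both libraries. In the KO-labelled library the intervals of *Chrnb1* meet, as do those of *Chrnd*, with 1 UMI against 0. *Ache*, *Chrne*, *Musk* and *Colq* chose the nuclei, so they lie higher there by construction. *Ncam1*, *Lrp4* and *Colq* of the junctional nuclei lie lower in the KO-labelled library.

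Over all myonuclei together, *Ncam1*, *Musk*, *Ache* and *Chrnb1* were higher in the KO-labelled library. In the WT- and KO-labelled libraries, *Ncam1* stood at 29.4 and 56.6 CPM (log2 0.94, 0.73 to 1.16), *Musk* at 44.5 and 76.9 CPM (0.79, 0.61 to 0.97), *Ache* at 2.82 and 4.87 CPM (0.79, 0.06 to 1.55) and *Chrnb1* at 27.3 and 33.8 CPM (0.31, 0.06 to 0.55). *Colq* was lower in the KO-labelled library, at 6.94 against 11.3 CPM (−0.70, −1.17 to −0.24), as was *Lrp4*, at 28.6 against 38.6 CPM (−0.43, −0.67 to −0.20). The intervals of *Chrna1* (−0.27), *Chrnd* (−2.93) and *Chrne* (−0.47) included 0, on 10 and 9, 7 and 1, and 28 and 22 UMIs. Thinned to 1000 UMIs, the intervals of *Ache* (1.33, −0.05 to 2.94), *Chrnb1* (0.38, −0.06 to 0.84), *Colq* (−0.34, −1.15 to 0.47) and *Lrp4* (−0.24, −0.68 to 0.21) included 0. That of *Chrnb1* did so too with myonuclei chosen by marker UMIs of at least 1% (0.20, −0.04 to 0.43) and over all kept nuclei (0.18, −0.03 to 0.40). Of the 4 members with at least 200 UMIs (*Chrnb1*, *Musk*, *Lrp4* and *Ncam1*), 0 reached a log2 ratio of 1 or −1, against 3.06% of the 6985 genes above and 2.72% below. Of the 7 members with at least 20 UMIs, 4 had an interval above the median of the 12437 genes with as many UMIs (−0.12) and 2 had one below it, against 20.9% and 20.8% of those genes.

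**Figure D3:**
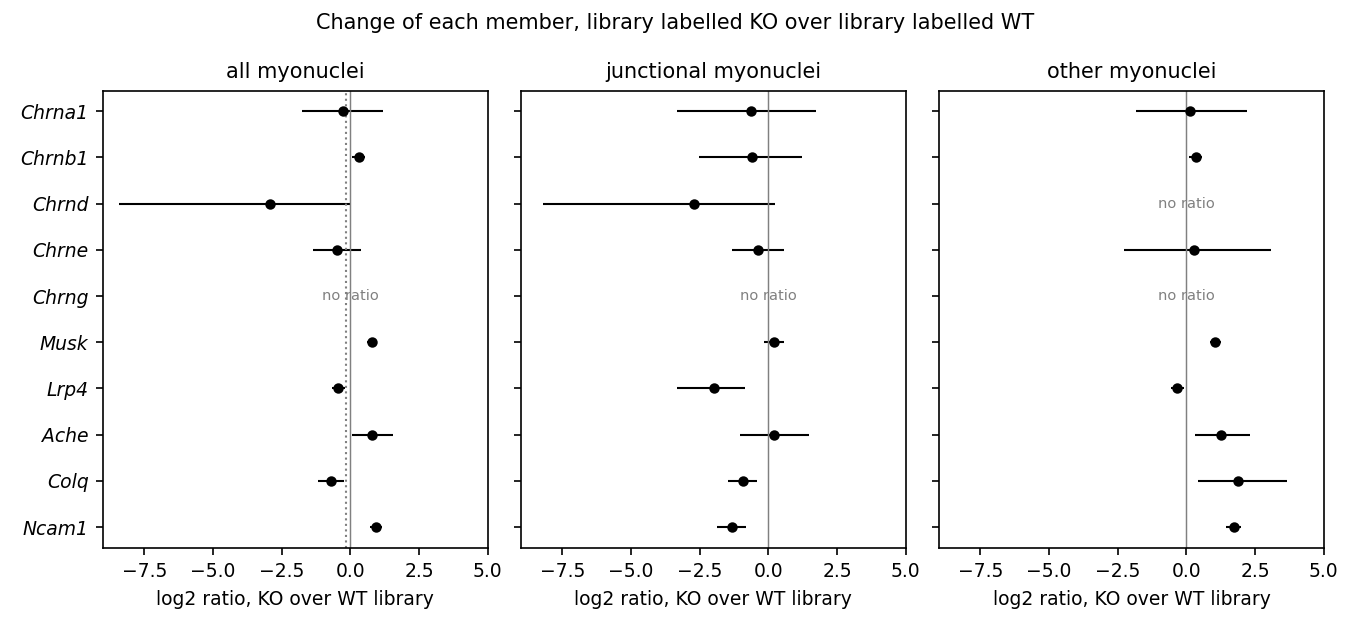
Log2 ratio of the KO-labelled library over the WT-labelled library for each member in all, junctional and other myonuclei, with exact 95% intervals for counting error. Solid lines mark 0 and the dotted line the median of all genes (−0.15). *Ncam1* and *Colq* lie below 0 in junctional nuclei and above 0 in other myonuclei, a split that uses *Colq* itself, and no ratio is given where both counts are at most 3.

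Fibre type, read as the main *Myh* gene of a nucleus (the one of *Myh4*, *Myh1*, *Myh2* and *Myh7* with most UMIs, for types IIB, IIX, IIA and I), differed between the libraries: *Myh4* led in 29.2% and 19.8% of myonuclei, *Myh1* in 48.1% and 38.1%, and *Myh2* in 9.69% and 15.6%. *Myh7* led in 2 and 19 nuclei, and none led, or genes tied, in 13% and 25.9%. Junctional nuclei were 10 of 704 *Myh4* nuclei (1.42%, 0.683 to 2.60) in the WT-labelled library and 3 of 611 (0.491%, 0.101 to 1.43) in the KO-labelled library. They were 7 of 1161 (0.603%, 0.243 to 1.24) and 12 of 1175 (1.02%, 0.529 to 1.78) of *Myh1* nuclei, and 3 of 234 (1.28%, 0.265 to 3.70) and 5 of 482 (1.04%, 0.338 to 2.40) of *Myh2* nuclei. The intervals of the libraries overlap in each class.

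Outside the junction and the MTJ-like cluster, *Ncam1* was higher in the KO-labelled library in each of the 4 classes compared. The levels were 6.23 and 45.3 CPM in *Myh1* nuclei (log2 2.86, 2.28 to 3.49), 8.26 and 41.5 CPM in *Myh2* nuclei (2.33, 1.21 to 3.70), 4.53 and 19.4 CPM in *Myh4* nuclei (2.10, 1.08 to 3.23) and 12.1 and 24.8 CPM where no gene led (1.03, 0.08 to 2.12). *Ncam1* was thus higher in *Myh1* and *Myh2* than in *Myh4* nuclei of the KO-labelled library, whose interval (13.4 to 27.2 CPM) does not reach theirs. *Musk* was highest in *Myh2* nuclei of the KO-labelled library, at 103 CPM against 38.9 CPM in the WT-labelled library (log2 1.40, 0.85 to 1.98), and lowest in *Myh1* nuclei, at 27.6 against 16.9 CPM (0.71, 0.27 to 1.15). *Myh4* nuclei held 47.7 and 70.5 CPM (0.56, 0.18 to 0.94). *Lrp4* differed more by fibre class than by library. It stood at 79.1 and 73.3 CPM in *Myh2* nuclei, 45.6 and 27.9 CPM in *Myh1* nuclei, and 8.23 and 7.64 CPM in *Myh4* nuclei, in the same order in both libraries. Only in *Myh1* nuclei did the interval of the *Lrp4* ratio exclude 0 among these 3 classes (−0.71, −1.06 to −0.37). *Chrnb1* was highest in *Myh4* nuclei among the 3 classes, at 37.9 and 52.9 CPM against 19.6 and 23.8 CPM in *Myh1* nuclei and 18.9 and 28.1 CPM in *Myh2* nuclei. Endothelial-like nuclei held 35.7 CPM (19.5 to 59.9) and 29.9 CPM (12.9 to 58.9) of it, intervals that reach the levels of the *Myh4* nuclei. Nuclei like fibro-adipogenic progenitors held 16.6 CPM (9.86 to 26.3) and 9.95 CPM (4.0 to 20.5), below the intervals of the *Myh4* nuclei (30.5 to 46.4 and 42.5 to 65.0 CPM).

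**Figure D4:**
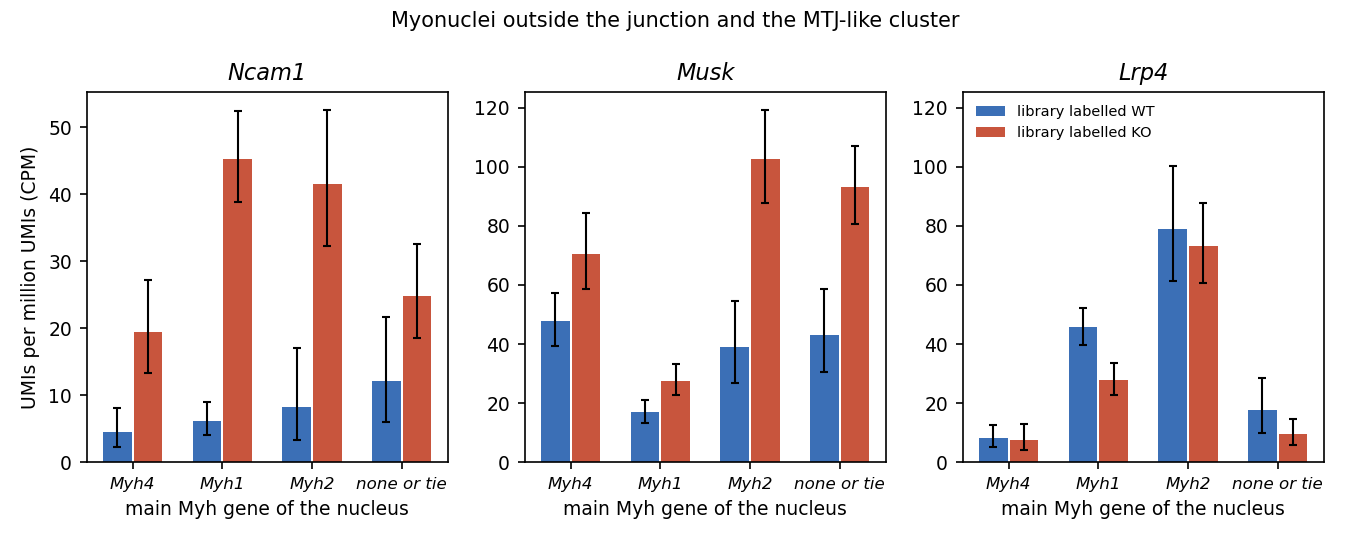
Level (CPM) of *Ncam1*, *Musk* and *Lrp4* by the main *Myh* gene of the nucleus in myonuclei outside the junction and the MTJ-like cluster, for the libraries labelled WT (blue) and KO (red), with exact 95% Poisson intervals. *Ncam1* and *Musk* are higher in the KO-labelled library in each class, and *Lrp4* is highest in *Myh2* nuclei and lowest in *Myh4* nuclei of the named classes.

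Other nuclei of the muscle also held some of these genes. Muscle stem cell-like nuclei (186 and 128) had 917 and 989 CPM of *Ncam1*, 315 and 393 CPM of *Musk*, 205 and 186 CPM of *Chrnb1* and 77.0 and 41.4 CPM of *Chrna1*, and 0 UMIs of *Chrne* and *Ache* in either library. *Chrnd* had 6 and 1 UMIs there (22.0 and 5.18 CPM), against 7 and 1 UMIs in all myonuclei. *Chrng* had 1 and 4 UMIs there. Nuclei like fibro-adipogenic progenitors (480 and 327) held *Musk* at 75.8 CPM (60.3 to 94.1) and 134 CPM (108 to 163), above the level of other myonuclei in each library. Endothelial-like nuclei (223 and 129) held 1 and 0 UMIs of *Musk*, 3 and 0 UMIs of *Ncam1*, and 0 UMIs of *Chrna1*, *Chrnd*, *Chrne*, *Chrng*, *Ache* and *Colq*. A cluster led by *Reln*, *Tenm2* and *Slit2* (51 and 35 nuclei) held *Ncam1* at 726 and 476 CPM and *Lrp4* at 110 and 238 CPM.

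The wider machinery of the junction did not move in 1 direction. Of the 19 genes of the postsynaptic scaffold and MuSK signalling, 17 had at least 20 UMIs. Their median log2 ratio was 0.29, 9 had an interval above the median of the 12437 genes and 1, *Lama5* (−0.47, −0.80 to −0.14), had one below it, against 20.9% and 20.8% of all genes. The highest were *Nes* (nestin, an intermediate filament), with 7 and 34 UMIs (log2 2.16, 0.96 to 3.58), and *Lamb2* (a laminin of the synaptic cleft), with 168 and 490 UMIs (1.42, 1.17 to 1.68). The lowest were *Pak1* (−0.59, −1.20 to 0.01) and *Sntb2* (−0.56, −1.06 to −0.07). Of these 19 genes, 9 had at least 3 UMIs in junctional nuclei of each library and were found in at least 5 junctional nuclei. Of the 9, 3 were at least 2-fold higher in junctional than in other myonuclei in both libraries, against 225 of 3315 among all such genes. Genes of low counts pass this filter only where they are high in junctional nuclei, so the count is a description. *Rapsn*, whose protein rapsyn tethers the receptors, had 1 and 2 UMIs in junctional nuclei and 116 and 145 UMIs in other myonuclei, so its levels (11.3 and 24.2 against 13.2 and 15.1 CPM) were not detectably apart. *Dok7*, the activator of MuSK, had 5 and 2 against 331 and 485 UMIs. *Utrn* (utrophin) was 5.04 and 3.80 higher in junctional nuclei on the log2 scale.

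The 12 junction markers went the other way. Of the 11 with at least 20 UMIs, 10 had a log2 ratio below 0, 6 had an interval below the median of the 12437 genes, 5 reached −1 or less, and the median was −0.79. Of the 12437 genes, 62% lay below 0, 20.8% had an interval below the median and 5.24% reached −1 or less. *Ano4*, of the anoctamin family of membrane proteins, had 304 UMIs in the WT-labelled library and 85 in the KO-labelled library (34.3 and 8.81 CPM, log2 −1.96, −2.33 to −1.61), and *Pdzrn4* had 119 and 43 (−1.59, −2.13 to −1.08). The highest were *Utrn*, the exception to the list (0.56, 0.43 to 0.69), and *Prkar1a*, a regulatory subunit of protein kinase A (−0.16, −0.36 to 0.04). Most *Ano4* molecules, 287 of 304 and 84 of 85, lay in junctional nuclei, of which 13 and 7 held any. The number of marker-rich nuclei, 15 and 9, moves with it, and its part in the result was not tested. *Utrn* and *Etv5* stand in 2 lists each. Among the 9 measured of 10 genes of ERBB signalling and the ETS factors, the median was −0.19. *Erbb2* (1.38, −0.03 to 3.01) and *Nrg1* (0.88, −0.53 to 2.43) were highest, on 6 and 17 and on 7 and 14 UMIs, and *Etv5* (−1.28, −1.91 to −0.68) and *Erbb3* (−0.47, −0.84 to −0.11) lowest. *Etv5* and *Etv4*, ETS factors that bind sites like the N-box shown above, had 61 and 26 of 76 and 34 UMIs, and 15 and 19 of 18 and 19 UMIs, in junctional nuclei.

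The genes that respond to denervation went both ways. They were tallied by sign, without regard to whether nerve loss raises or lowers them, so the counts and median give no direction of a denervation response. Of 17, 14 had at least 20 UMIs, with a median of 0.30, 8 above 0, 7 with an interval above the median of the 12437 genes and 4 below it (*Fgfbp1*, *Dach2*, *Fbxo32* and *Hdac4*), against 38% of all genes above 0, 20.9% with an interval above the median and 20.8% below it. *Sln* (sarcolipin, a brake on the calcium pump) had 1 UMI in the WT-labelled library and 156 in the KO-labelled library (log2 7.16, 4.66 to 12.5), 152 of them outside the junction. *Cdkn1a*, a cell cycle inhibitor, had 80 and 224 UMIs (1.36, 0.99 to 1.75) and *Runx1*, a transcription factor that rises when muscle loses its nerve, 106 and 270 (1.23, 0.90 to 1.56). *Fgfbp1*, whose protein binds fibroblast growth factors, had 22 and 1 (−4.58, −9.95 to −1.95), and *Dach2*, a repressor of *Myog*, 279 and 43 (−2.82, −3.32 to −2.35). *Myog*, the activator of the receptor genes after nerve loss, had 23 and 37 UMIs (0.56, −0.23 to 1.38), and embryonic *Myh3* had 0 and 3. Of 5 channel genes of the fibre membrane, 4 were measured and all 4 were below 0, as were 62% of the 12437 genes. Of the 4, 3 had an interval below the median of those genes, against 20.8% of all. *Kcnn3*, a calcium-activated potassium channel that appears in denervated muscle, had 461 and 123 UMIs (−2.03, −2.33 to −1.74) and *Clcn1*, the chloride channel, 2443 and 1932 (−0.46, −0.55 to −0.37), and *Kcnj2* (−0.29) and *Scn4a* (−0.20) were the highest.

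**Figure D5:**
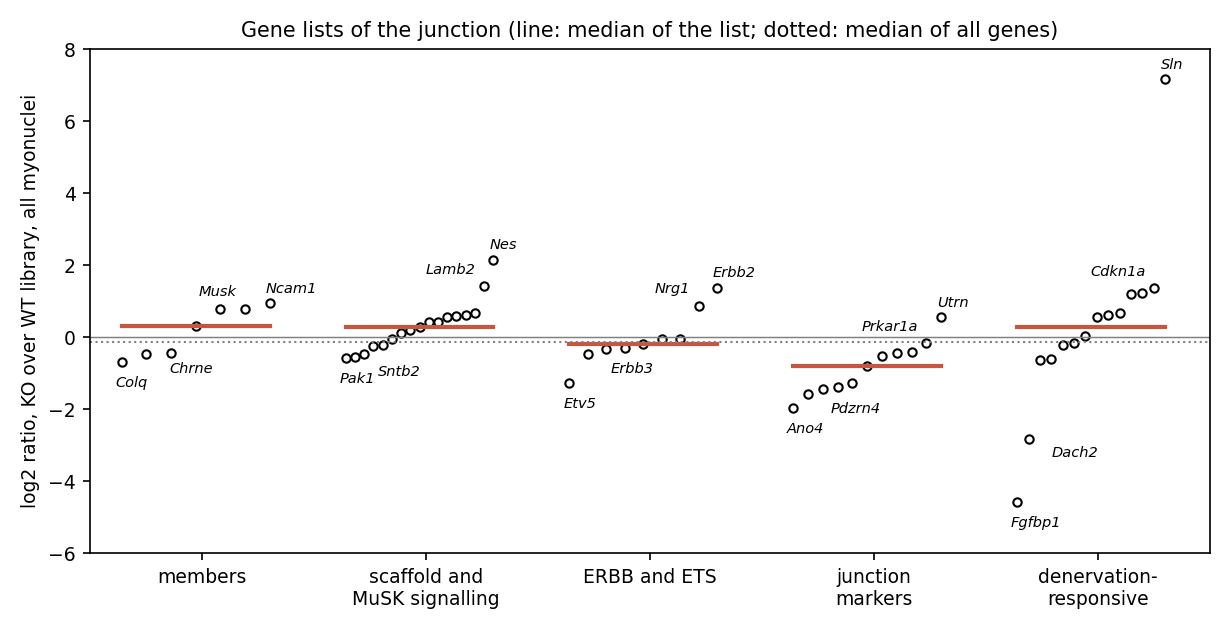
Log2 ratio of the KO-labelled library over the WT-labelled library in all myonuclei for each gene with at least 20 UMIs of 5 gene lists (points, ordered by value within a list), with the median of each list (bar) and that of all genes (dotted line, −0.12). The 2 highest and 2 lowest genes of each list are named. The junction markers lie mostly below the line, the scaffold genes mostly above it, and the denervation-responsive genes run from *Fgfbp1* to *Sln*.

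The genes most like the rule's genes were sought among 3315 genes with at least 3 UMIs in junctional nuclei of each library and found in at least 5 junctional nuclei of both together. Since genes of low counts pass this filter only where they are high in junctional nuclei, the ranking is a description. By the smaller log2 ratio over other myonuclei of the 2 libraries, the first 12 were *Ano4*, *Epb41l4a*, *B4galnt3*, *Gm13387*, *Calcrl*, *Etv4*, *Etv5*, *Pdzrn4*, *Hs3st3a1*, *Cfap54*, *Nog* and *Dusp6*. *B4galnt3*, a glycosyltransferase, had all of its 35 and 22 UMIs in junctional nuclei, at least 1159-fold and 848-fold above other myonuclei when these are put at 3 counts. *Calcrl*, the receptor for calcitonin gene-related peptide, had 227 of 271 and 41 of 49 UMIs there, in 16 and 7 nuclei, a log2 ratio of 9.0 (8.53 to 9.5) and 9.21 (8.10 to 10.5). *Epb41l4a* reached 10.2 and 9.94. *Hs3st3a1* and *Cfap54* each came from 1 nucleus with 14 UMIs in the KO-labelled library, and *Nog* rested on 5 and 3 UMIs.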

How the data were processed

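Nuclei were isolated from pooled TA muscles, and the authors deposited raw UMI counts, whole numbers for each gene and barcode of 1 library per genotype, made per the labels with Cell Ranger 7.0.0 on mm10. The methods name a 10x 3′ kit and the labels the 10x Multiome kit, and whether intronic reads or strand were used in counting is not given in the sources used here. No column of per-sample values was left unused. The deposited counts summed to 11974138 (WT) and 12026013 (KO) UMIs. Nuclei with 200 to 5000 genes and at most 5% mitochondrial UMIs were kept, and the highest Scrublet scores (scanpy 1.11.5) were removed at 0.8% per 1000 barcodes, 115 and 134 nuclei. The threshold that Scrublet set itself marked 32 and 2. Seurat 5.3.0 in R 4.3.3 took 2000 variable genes and 30 components, integrated the libraries by RPCA and clustered at resolution 0.5, leaving out 434 genes (372 that differed 2-fold in myonuclei, and all listed genes). Clusters with at least 30000 CPM of 10 myonuclear markers were myonuclei. Other classes are named "like" a type from their markers, and a cluster of cycling nuclei stayed unnamed. Of the 8 Schwann cell markers, 1 is not reported here and is left out of their sums.

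Sums, exact Poisson, Clopper-Pearson and conditional binomial intervals (95%) were computed in Python 3.11.15 with scipy 1.17.1, and were tested on simulated data. No test was run between genotypes, since nuclei are not replicates. The floor for a count of 0 was 3 counts. The named genes were the 10 members, the 2 highest and 2 lowest of each list with at least 20 UMIs, the 12 genes most like the rule's genes, and *Bcl6*. Others (*Socs2*, *Lama5*, *Hdac4*, *Hdac9*, *Rapsn*, *Dok7*, *Runx1*, *Myog*, *Myh3*, *Ankrd1*, *Trim63* and *Fbxo32*) were named after their values were seen. The members and lists were chosen with earlier results of these data known. Alternatives changed the doublet, mitochondrial and gene filters, the choice of myonuclei, depth, resolution, scaling (edgeR 4.0.16, DESeq2 1.42.0), weighting and the rule. A further 8 were added after seeing the data. IDs of 32158 genes are in GENCODE M21.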

Additional observations from a re-analysis of the deposited data

Results flagged for a closer look

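A pair of genes had ratios of opposite sign in junctional and other myonuclei, with intervals on opposite sides of 0, and these differences were not tested because there was 1 library per genotype. The log2 ratio of the KO-labelled library over the WT-labelled library for *Ncam1* was −1.33 in junctional nuclei and 1.71 in other myonuclei, a difference of −3.05. For *Colq*, with nuclei chosen by the other 3 rule genes, it was −1.29 and 0.91, a difference of −2.19, on 21 and 43 UMIs outside, a level not detectably above that of endothelial-like nuclei. In the nuclei with at least 4 junction markers, chosen among those of the full rule, the junctional ratios were −0.50 for *Ncam1* and −0.31 for *Colq*, and both intervals included 0.

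*Ncam1* over all myonuclei also had opposite signs by the main *Myh* gene, which was not tested either. Its log2 ratio was −0.60 in *Myh4* nuclei (96 and 44 UMIs), 2.51 in *Myh1* nuclei and 1.20 in *Myh2* nuclei, which are differences of −3.11 and −1.80. Where no gene led it was −0.65 (81 and 116 UMIs), which differs from *Myh1* and *Myh2* nuclei by −3.16 and −1.84. Without the junctional nuclei, which were 10 of 704 and 3 of 611 *Myh4* nuclei, the *Myh4* ratio was 1.27 (0.52 to 2.04), so its sign turned, and where no gene led it was −0.59 (−1.05 to −0.13). Without the MTJ-like cluster as well, the ratios were 2.10 and 1.03.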

How the results depend on the processing

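With 1 library per genotype, every statement above compares those libraries, and 46 junctional nuclei limit what depth can show there. Of 285 values under the alternatives, 6 had the other sign than the value reported, all of them for ratios between the libraries whose interval included 0. Over all myonuclei *Chrne* went from −0.47 to 0.25 when thinned. In junctional nuclei *Chrnb1* went from −0.58 to 0.02 with at least 3 rule genes and 0.47 with at least 4 junction markers, *Chrne* from −0.38 to 0.17 and 0.12, and *Ache* from 0.21 to −0.76 with at least 4 junction markers. Of the log2 ratios between the libraries over all myonuclei, 119 stayed within the reported interval under the alternatives and 5 moved. The ratio of *Musk* was 0.56 with nuclei thinned to 1000 UMIs. That of *Ncam1* was 0.58 with myonuclei chosen by marker UMIs of at least 1%, 0.29 over all kept nuclei, 0.56 as a mean over nuclei and 0.36 with *Myh* classes weighted equally. TMM and median-of-ratios scaling raised all ratios by 0.13 and 0.12. No paired analysis was possible because the groups hold 1 library each.

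Other values moved with the rule for junctional nuclei. Their share was 0.545% and 0.431% when thinned, 0.456% and 0.227% with at least 3 of the 4 genes, 0.580% and 0.389% with 2 or more UMIs of each gene, and 8.08% and 10.2% with at least 1 gene. Junctional over other myonuclei, *Lrp4* was 4.76 (WT, thinned), and 0.79 (WT) and 0.32 (KO) with at least 1 gene. In the WT-labelled library, *Ncam1* was 5.37 by marker UMIs, 6.96 thinned, 6.86 with at least 3 genes and 3.48 with at least 1. In the KO-labelled library it was 4.59 with at least 3 genes, 4.37 with 2 or more UMIs and 0.99 with at least 1. By the alternatives added after seeing the data, the ratio of the libraries in junctional nuclei was −0.31 for *Colq* and −0.50 for *Ncam1* with at least 4 junction markers, and −0.76 for *Ncam1* with at least 3 genes. Outside the junction *Ncam1* was 2.49 without the MTJ-like cluster. With at least 100 UMIs per gene, the list medians were −1.28 for junction markers and 0.63 for denervation-responsive genes. The causes were not tested.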
